A study of Mus musculus with 6 samples.

Results

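Long intergenic noncoding RNAs (lincRNAs) of the right atrium (RA) were examined in mice with and without neonatal volume overload (VO). The lincRNAs were chosen by annotation, position and level. They were the genes that the deposited table types as lincRNA, that lie on neither sex chromosome, and whose mean over all 6 libraries was at least 1 FPKM (fragments scaled by gene length in kilobases and by library size). The rule took 192 of 4893 such genes off the X and Y chromosomes, in a table of 54093 genes; 1849 of the 4893 were above 0 in at least 1 library. All 6 libraries came from the RA of wild-type C57BL/6 mice at postnatal day 21. The VO group (n = 3) had received a fistula between the abdominal aorta and the inferior vena cava as neonates, and the sham group (n = 3) a sham operation. The labels number the libraries of each group but do not say whether each came from 1 mouse or from several, so the p-values below measure only the spread between these libraries, which may in part be technical. The fistula loads the whole heart with returning blood, so the model is not restricted to the atrium.

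A lincRNA is a spliced or unspliced RNA, usually capped and polyadenylated, with no long reading frame, transcribed from between protein-coding genes. Members of the class work in different ways: some build nuclear bodies, some act on the chromatin or the genes around them, some are precursors of microRNAs or small nucleolar RNAs, and some bind proteins or other RNAs in the cytoplasm. In the heart, lincRNAs are known for roles in the commitment of cardiac progenitors and in the fetal gene program, and some transcripts once typed as noncoding turned out to encode small mitochondrial or membrane proteins.

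Among the lincRNAs described here, 8 held 14 microRNA genes within their span and on their strand. The host RNAs were measured, but the microRNAs were not: each of these 14 genes was listed with 0 fragments in all 6 libraries. The mature sequences in 3 hosts with results below are shown because they make the products of these loci recognizable. They were taken from RefSeq (GRCm38.p6), are written 5′ to 3′, and carry the seed, bases 2 to 8, in capitals. Mir17hg, on the plus strand of chromosome 14, is the host of the miR-17-92 cluster, in which miR-17-5p and miR-20a-5p share a seed and miR-19a-3p and miR-19b-3p share another.
miR-17-5p: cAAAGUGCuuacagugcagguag
miR-20a-5p: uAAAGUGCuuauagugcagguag
miR-18a-5p: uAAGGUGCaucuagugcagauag
miR-19a-3p: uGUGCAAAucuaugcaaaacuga
miR-19b-3p: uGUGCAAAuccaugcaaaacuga
miR-92a-3p: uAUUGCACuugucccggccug
H19, on the minus strand of chromosome 7, holds miR-675 in its exon, and Meg3, on the plus strand of chromosome 12, holds miR-770. Their seeds were shared with no other mature microRNA of the 8 hosts.
miR-675-5p: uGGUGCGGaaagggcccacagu
miR-675-3p: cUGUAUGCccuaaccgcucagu
miR-770-5p: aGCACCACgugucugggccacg
miR-770-3p: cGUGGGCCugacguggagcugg

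The libraries held 15963082 to 17237903 fragments on genes, recovered from FPKM and gene length. The atrial cardiomyocyte markers Myl7, Nppa, Sln, Myl4 and Bmp10 were high in all 6 libraries, with a summed level of 5603 to 18160 FPKM, lowest in VO 1 and highest in sham 1. Every VO library (5603 to 11420 FPKM) lay below every sham library (12110 to 18160 FPKM) in this sum. Taken singly, Myl7, Myl4 and Bmp10 separated the groups as well. Nppa and Sln overlapped, with VO 2 (3224 and 807.9 FPKM) above sham 2 and sham 3. The 3 ventricular markers summed to 90.8 to 306 FPKM. Among them Irx4 was at most 0.259 FPKM, Myl3 was 83.8 to 246 FPKM, and Myl2 was 60.4 FPKM in sham 1, 56.0 FPKM in sham 3 and 20.6 FPKM in VO 3 against 1.54 to 6.95 FPKM in the other 3. A pair of VO libraries stood apart. VO 1 had a summed macrophage and leukocyte marker level (Ptprc, Cd68, Adgre1, Cd3e, Cd79a) of 88.3 FPKM against 18.6 to 27.9 in the other 5, and VO 3 alone had the brown fat marker Ucp1, at 253.6 FPKM against 0 in the other 5. Xist was high in sham 1, sham 3, VO 1 and VO 2 and the Y-linked Ddx3y in sham 2 and VO 3, so both sexes were present in each group. In bulk tissue, fewer cells of a type and less RNA per cell cannot be told apart.

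Most lincRNAs of the atrium were scarce. Of the 192, 77 averaged 1 to 2 FPKM, 150 averaged less than 5 FPKM, and 20 reached 10 FPKM. Their median was 2.45 FPKM, against 6.64 FPKM for the 11314 protein-coding genes over the same threshold. Of the lincRNA genes in the table, 3.92% reached 1 FPKM, compared with 51.8% of protein-coding genes. A lincRNA had a median of 65.4 fragments per library, and 37 lincRNAs averaged under 20 fragments per library. At the threshold itself, Gm12525 (1.04 FPKM), D830026I12Rik and Gm11274 were the last to be included, and 1700047M11Rik (0.997 FPKM), Gm13479 (0.981 FPKM) and Gm10451 (0.979 FPKM) were the first to be left out.

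A few genes carried much of the signal. The 3 most abundant lincRNAs held 28.5% of the summed lincRNA FPKM and the 10 most abundant held 43.3%. H19, 2900097C17Rik and 1700020I14Rik were ahead of all others. H19 (chromosome 7, 142575529 to 142578143, minus strand) is an imprinted RNA transcribed from the maternal allele, abundant in the fetus and normally silenced after birth in most tissues. It measured 135, 141 and 183 FPKM in sham 1 to 3 and 262, 244 and 139.9 FPKM in VO 1 to 3. VO 1 and VO 2 lay above every sham library, but VO 3 lay at the level of sham 2, so the groups overlapped. The group means were 153 ± 26.0 and 215 ± 66.0 FPKM (SD, n = 3 each). The difference of 0.46 on the log2 scale had a 95% confidence interval of -0.16 to 1.07 (limma, unadjusted p = 0.122, adjusted p = 0.467), and it ranged from 0.29 without VO 1 (unadjusted p = 0.316) to 0.74 without VO 3 (unadjusted p = 0.0062). Igf2, the growth factor gene next to H19 whose paternal allele is the active one, was looked up after these values were seen and was also highest in VO 1 and VO 2, at 8.24 and 7.44 FPKM, and low in VO 3, at 3.58 FPKM, against 3.44 to 6.34 FPKM in sham.

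The next pair of lincRNAs was even across the 6 libraries. 2900097C17Rik (chromosome 2, 156388065 to 156392979, minus strand), the mouse counterpart of NORAD, a cytoplasmic RNA that binds Pumilio proteins, measured 66.6 ± 1.26 FPKM in sham and 64.9 ± 6.07 FPKM in VO, with a log2 difference of -0.04 (95% confidence interval -0.30 to 0.22). A copy of its sequence elsewhere, Gm7292, was at 0.218 FPKM. 1700020I14Rik (chromosome 2, 119594297 to 119607502, plus strand) ranged from 60.3 to 68.0 FPKM over all 6 libraries and had the smallest ratio of highest to lowest library of all members above 0 in every library, 1.13. Its log2 difference was 0.08 with an interval of -0.15 to 0.31.

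The nuclear RNAs were also abundant. Malat1 (chromosome 19, 5795690 to 5802672, minus strand), which accumulates in nuclear speckles, measured 14.3, 22.7 and 30.4 FPKM in sham and 33.3, 34.7 and 26.1 FPKM in VO. VO 1 and VO 2 were above all sham libraries and VO 3 fell between sham 2 and sham 3. The log2 difference was 0.53 (95% confidence interval -0.10 to 1.17; limma, unadjusted p = 0.0884, adjusted p = 0.439). It was 0.24 without sham 1 (unadjusted p = 0.252) and 0.78 without sham 3 (unadjusted p = 0.0163). Neat1, the scaffold of paraspeckles, lies close by on the same strand and measured 7.11 ± 0.481 FPKM in sham and 7.96 ± 1.70 FPKM in VO (log2 difference 0.14, 95% confidence interval -0.26 to 0.54), and its difference ranged from 0.02 without VO 3 (unadjusted p = 0.916) to 0.32 without VO 1 (unadjusted p = 0.0281).

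Of the other 6 among the 10 most abundant, 3 raise a question of type. RefSeq calls 1810058I24Rik, which encodes a small mitochondrial protein, Lsmem2, a membrane protein gene of striated muscle, and Tmem250-ps protein coding. 1810058I24Rik measured 27.6 ± 6.42 FPKM in sham and 22.0 ± 1.57 FPKM in VO (unadjusted p = 0.121 by limma, adjusted p = 0.467), Lsmem2 measured 22.3 ± 5.19 and 18.98 ± 1.32 FPKM, and Tmem250-ps measured 23.0 ± 1.63 and 21.2 ± 4.31 FPKM. The log2 difference of 1810058I24Rik was -0.14 without sham 1 (unadjusted p = 0.337) and -0.47 without sham 2 (unadjusted p = 0.0278), and that of Lsmem2 was -0.04 without sham 1 (unadjusted p = 0.774) and -0.38 without sham 3 (unadjusted p = 0.0421). In all, RefSeq held an entry for 117 of the 192 and called 106 of them long noncoding RNA and 8 protein coding. Gm44386 (21.6 ± 6.41 FPKM in sham, 21.1 ± 6.73 FPKM in VO) and Gm19277 (19.7 ± 1.60 and 20.6 ± 4.21 FPKM) overlapped between groups. Gm10076 is a single-exon gene whose sequence is 99.5% identical to that of Rpl41, a ribosomal protein gene, so its reads cannot be placed with certainty. It spanned 3.63 FPKM in sham 2 to 89.3 FPKM in VO 3, and its second highest value was 41.3 FPKM in sham 1, whereas Rpl41 itself measured 72.3 FPKM in VO 3 and 175 FPKM in sham 1.

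**Figure D1:**
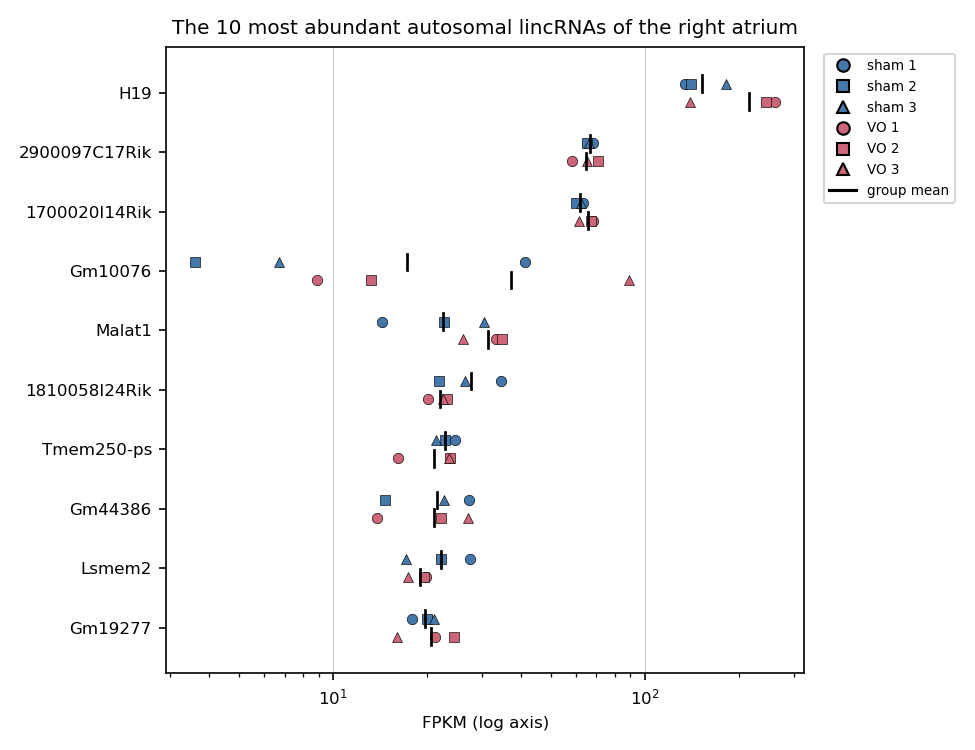
FPKM (log axis) of the 10 most abundant lincRNAs in each of 3 sham (blue) and 3 VO (red) libraries, with a bar at each group mean. H19 was above 130 FPKM in every library, 2900097C17Rik and 1700020I14Rik sat in a narrow range near 60 to 70 FPKM, and Gm10076 was spread from 3.63 to 89.3 FPKM.

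Whether lincRNAs differed between VO and sham was then tested in the fit over all 12627 genes of at least 1 FPKM. No lincRNA passed an adjusted p of 0.05 (limma, Benjamini-Hochberg over all tested genes), and the smallest adjusted p was 0.284, whereas 1 gene, or 0.00792% of all tested, passed. The study used DESeq2, another method, and reported far more genes at the same adjusted threshold. The absence of a called lincRNA therefore holds for the fit used here. At an unadjusted p under 0.05 there were 20 lincRNAs, 8 higher and 12 lower in VO. These 20 are 10.4% of the members, against a background of 12% of all tested genes (3.89% higher and 8.08% lower). The libraries of the groups did not overlap for 13 lincRNAs that were higher and 12 that were lower, 13% together, compared with 21.2% of all tested genes (8.25% higher and 12.9% lower). Both shares were below those of all tested genes. A further comparison was with the 4170 protein-coding genes from 1 FPKM to the upper quartile of the lincRNAs, 4.55 FPKM. They are not fully matched to the lincRNAs. Their median length was 4985.5 bases against 1460.5 bases, so at the same FPKM they rest on more fragments. Of them, 7.34% had an unadjusted p under 0.05 (4.36% higher and 2.97% lower) and 17.2% did not overlap. The lincRNA share at this p threshold lay between those of these protein-coding genes and of all genes. These shares were not tested against each other. The median log2 difference of the 192 was -0.02, with quartiles of -0.30 and 0.25, beside -0.01 over all tested genes, and 94 were higher and 98 lower in sign. The count of 20 became 22 without VO 1 and 31 without VO 3 (16 higher and 15 lower), and the higher genes numbered 5 without sham 1 or without VO 2. On TPM values (FPKM rescaled to the same sum in every library), the median of all genes moved to 0.13 and that of the lincRNAs to 0.12, and the split at an unadjusted p under 0.05 became 15 higher and 7 lower.

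The members past the unadjusted threshold all lay below 10 FPKM. None of the 20 lincRNAs of at least 10 FPKM had an unadjusted p under 0.05 or groups without overlap. The unadjusted threshold was passed by 11 of the 77 at 1 to 2 FPKM. At 2 to 5 FPKM 6 of the 73 passed it, and at 5 to 10 FPKM 3 of the 22 did. Over all tested genes the share was 12%. In protein-coding genes it was 11.5% at all levels and 7.34% from 1 FPKM to the upper quartile of the lincRNAs. These counts by level are small and were not tested against each other. The residual SD on the log2 scale had a median of 0.35 in lincRNAs and of 0.19 in protein-coding genes, and was 0.22 in protein-coding genes from 1 FPKM to the upper quartile of the lincRNAs. The median length of that last set was 4985.5 bases, against 1460.5 bases in lincRNAs. The part of gene length in the spread was not tested. Some members entered through 1 group only: 11 had a sham mean under 1 FPKM and 12 a VO mean under 1 FPKM, and 4 and 3 of these passed the unadjusted threshold. Of the 169 with both means at 1 FPKM or above, 4 were higher and 9 lower at that threshold. Of the 20, 6 averaged under 20 fragments per library and 7 shared exon sequence with another gene or had a near-identical copy elsewhere, as did 54 of all 192.

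**Figure D2:**
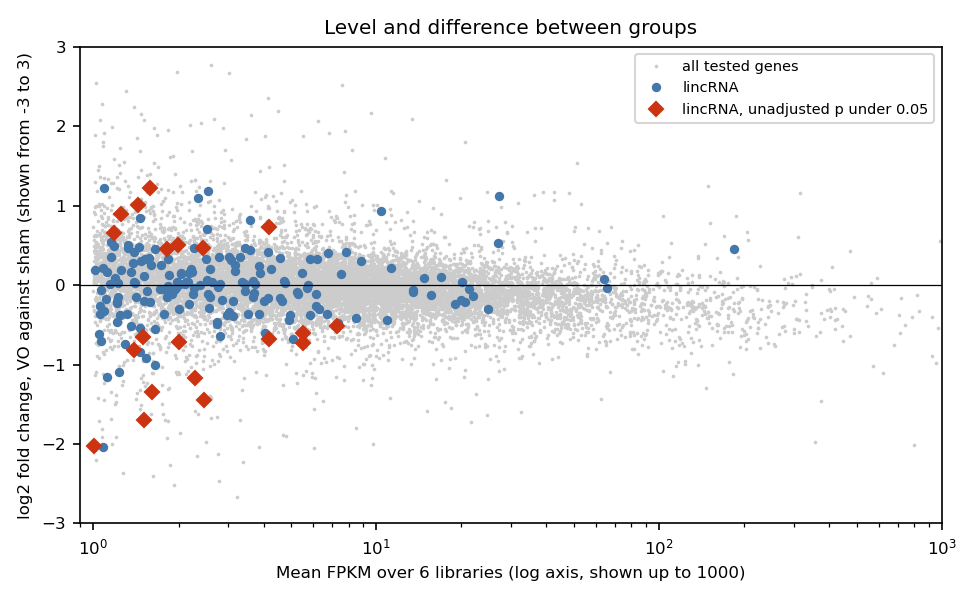
Log2 fold change of VO against sham plotted on mean FPKM over 6 libraries (log axis), for all tested genes (grey), the 192 lincRNAs (blue circles) and the 20 lincRNAs with an unadjusted p under 0.05 (red diamonds). The red points all lie below 10 FPKM, and the lincRNAs of at least 10 FPKM lie near 0 apart from a few with wide spread.

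Lppos had the smallest p of all members. It is a 2-exon gene (chromosome 16, 24391612 to 24393588, minus strand) that runs opposite to Lpp, which encodes a LIM protein of cell adhesions, and has an exon over an exon of Lpp. It measured 6.70, 7.31 and 5.98 FPKM in sham and 4.50, 4.40 and 4.13 FPKM in VO. Every VO library lay below every sham library and the VO libraries lay close together. The group means were 6.66 ± 0.668 and 4.35 ± 0.191 FPKM, a log2 difference of -0.60 ± 0.11 (SE), with unadjusted p = 0.00111 and an adjusted p of 0.284 (limma). The unadjusted p stayed under 0.05 whichever library was left out. Whether strand was used in counting is not given in the sources used here, so reads from the shared exon are of uncertain assignment to Lppos or Lpp. Lpp measured 4.90 ± 1.01 FPKM in sham and 5.20 ± 0.833 FPKM in VO. The RefSeq promoter of Lppos (GRCm38.p6, chr16:24393606-24393905, minus strand, 250 bases before to 50 after the RefSeq start) is shown because Lppos had the smallest p. It has a GC content of 82% and 43 CpG dinucleotides, compared with medians of 52.7% and 7 over 32851 promoters.
Lppos promoter: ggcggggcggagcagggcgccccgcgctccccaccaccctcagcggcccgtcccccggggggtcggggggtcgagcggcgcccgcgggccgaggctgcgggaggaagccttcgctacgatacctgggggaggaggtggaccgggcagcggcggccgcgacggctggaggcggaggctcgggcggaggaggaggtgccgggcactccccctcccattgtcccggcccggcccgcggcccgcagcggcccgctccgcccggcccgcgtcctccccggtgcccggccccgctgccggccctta

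The other 7 lincRNAs named among those lower in VO without overlap had unadjusted p-values from 0.00591 to 0.025 and adjusted p-values from 0.371 to 0.406. A430046D13Rik, which lies 5219 bases from the myosin light chain gene Myl6 on the opposite strand, was the most abundant, at 8.82, 8.31 and 8.52 FPKM in sham and 4.69, 7.28 and 6.12 FPKM in VO. Its sham libraries were nearly equal and its VO libraries were all lower, by -0.52 on the log2 scale. A330102I10Rik, with the transcription factor gene Sox4 as its nearest protein-coding gene, measured 4.75, 5.04 and 5.58 FPKM in sham and 3.30, 4.22 and 2.26 FPKM in VO. Gm39214, whose exon lies over an exon of Itfg1 on the other strand, measured 2.54 ± 0.609 FPKM in sham and 1.48 ± 0.0635 FPKM in VO, while Itfg1 measured 8.79 ± 0.329 and 9.34 ± 0.466 FPKM. 2700046G09Rik lies opposite an exon of the sphingomyelin synthase gene Sgms1. It measured 1.86 ± 0.382 FPKM in sham and 1.13 ± 0.138 FPKM in VO, and Sgms1 was lower as well (10.6 ± 0.658 and 8.56 ± 1.11 FPKM), and reads of this pair are likewise of uncertain assignment.

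The remaining 3 rested on few fragments. Gm34276 measured 4.83, 2.38 and 2.52 FPKM in sham and 1.63, 1.26 and 1.11 FPKM in VO, from 69 fragments in the sham libraries together and 30 in the VO libraries. Gm8066 (3.57 ± 1.48 and 1.36 ± 0.757 FPKM) rested on 86 and 34 fragments, and its p was 0.0816 without sham 2. Gm11274 lay at the threshold of inclusion and entered through its sham level of 1.62 ± 0.366 FPKM, against 0.394 ± 0.359 FPKM in VO, from 38 and 10 fragments. Leaving out sham 3 also ended the unadjusted call of A330102I10Rik (unadjusted p = 0.0580), and that of 2700046G09Rik held only without sham 1 or without VO 1.

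Meg3 was the best known lincRNA among those higher in VO. It is an imprinted RNA of the maternal allele at the Dlk1-Dio3 locus (chromosome 12, 109541001 to 109571726, plus strand), where it is followed by Rian and Mirg and by clusters of small nucleolar RNAs and microRNAs. Meg3 measured 1.31, 1.75 and 1.51 FPKM in sham and 2.11, 2.09 and 2.16 FPKM in VO. The VO libraries were nearly equal and all above the sham libraries. The means of 1.52 ± 0.222 and 2.12 ± 0.0362 FPKM differed by 0.46 ± 0.17 (SE) on the log2 scale (limma, unadjusted p = 0.0323, adjusted p = 0.410), on 1358 and 1952 fragments. Gm27000, which is 99.6% identical to 62.4% of its sequence, was at 0.0606 FPKM. The unadjusted call held in 1 of the 6 fits that leave out a library, the one without sham 2, and the log2 difference stayed between 0.36 and 0.56. Rian, which the table types differently and which is therefore no member, measured 2.13 ± 0.302 FPKM in sham and 2.97 ± 0.615 FPKM in VO (limma, unadjusted p = 0.0534, adjusted p = 0.414), and the protein-coding Dlk1 did not pass 0.226 FPKM in any library. The RefSeq promoter of Meg3 (GRCm38.p6, chr12:109540746-109541045, plus strand) is shown with a run in capitals that holds the reverse complement of TATAAA and TATAAA itself, which overlap and begin 29 and 25 bases before the start. TATAAA was searched on both strands and was present in 18.1% of the 94 lincRNA promoters matched in RefSeq and in 13.6% of all 32851 promoters.
Meg3 promoter: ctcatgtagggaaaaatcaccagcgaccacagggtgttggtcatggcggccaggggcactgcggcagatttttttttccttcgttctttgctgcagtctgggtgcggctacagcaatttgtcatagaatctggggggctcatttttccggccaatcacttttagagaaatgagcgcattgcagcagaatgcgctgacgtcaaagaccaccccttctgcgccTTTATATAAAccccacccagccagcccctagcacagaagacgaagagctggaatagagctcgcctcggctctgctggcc

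The other lincRNAs named as higher in VO without overlap were mostly unnamed genes near the threshold of inclusion. Of these, 6 had unadjusted p-values from 0.00883 to 0.0379 and adjusted p-values from 0.390 to 0.410. C230035I16Rik measured 0.981, 1.01 and 0.737 FPKM in sham and 2.64, 1.81 and 1.46 FPKM in VO, and Gm37083 measured 0.814, 1.14 and 0.691 FPKM in sham and 2.56, 3.02 and 1.28 FPKM in VO. In both genes VO 3 was the lowest VO library and the sham mean was under 1 FPKM, so the VO libraries brought them over the threshold. They rested on 41 and 31 sham fragments and on 93 and 83 VO fragments. 1810044D09Rik measured 3.18 ± 1.12 FPKM in sham and 5.19 ± 0.764 FPKM in VO, while its nearest protein-coding gene Chchd4, an import factor of the mitochondrial intermembrane space, was lower in VO (4.07 ± 0.479 and 2.68 ± 0.378 FPKM). B230312C02Rik, a gene with up to 7 exons whose nearest protein-coding gene is the cardiac transcription factor gene Gata5, measured 0.830, 0.954 and 0.901 FPKM in sham and 1.52, 1.51 and 1.36 FPKM in VO. It had one of the tightest spreads within groups, and it too entered through VO. Gata5 measured 2.23 ± 0.579 and 2.01 ± 0.362 FPKM. AI838599 measured 1.62 ± 0.231 FPKM in sham and 2.35 ± 0.252 FPKM in VO. E430024I08Rik measured 2.01 ± 0.119 FPKM in sham and 2.87 ± 0.609 FPKM in VO. It is 96.6% identical over 72.0% of its length to Gm46430, another member on chromosome 13. Gm46430 was also higher without overlap (2.89 ± 0.194 and 3.46 ± 0.203 FPKM), so this pair does not give independent observations. The nearest protein-coding gene of E430024I08Rik, Zfp825, was higher too (5.05 ± 0.826 and 7.42 ± 0.669 FPKM).

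C230035I16Rik and Gm37083 kept an unadjusted p under 0.05 whichever library was left out. Both had come over the threshold of inclusion through VO, and the filter was not redone when a library was left out. For the other 4 of these genes the call was lost in at least 2 of the 6 fits. It was lost without sham 2, sham 3 or VO 2 for 1810044D09Rik (largest unadjusted p = 0.0754), without sham 1 or VO 2 for B230312C02Rik (0.0622), without sham 1, sham 2, VO 1 or VO 2 for AI838599 (0.0711), and in every fit except the one without VO 3 for E430024I08Rik (0.132).

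Bvht, known as Braveheart, an RNA needed for cardiac commitment of embryonic stem cells, measured 8.74, 8.63 and 6.41 FPKM in sham and 9.93, 9.74 and 9.57 FPKM in VO. The VO libraries were all above the sham libraries, but the log2 difference of 0.31 (95% confidence interval -0.02 to 0.64) did not pass the unadjusted threshold (limma, unadjusted p = 0.0619, adjusted p = 0.420). Mir17hg, the host of the 6 microRNAs printed above, measured 1.07, 1.07 and 1.15 FPKM in sham and 1.67, 1.32 and 1.69 FPKM in VO. Its groups did not overlap either, and the log2 difference was 0.46 (95% confidence interval -0.04 to 0.96; limma, unadjusted p = 0.0644, adjusted p = 0.422). With 1 library left out, the log2 difference of Bvht was 0.16 without sham 3 (unadjusted p = 0.203) and 0.38 without sham 1 (unadjusted p = 0.043), the only such fit past the unadjusted threshold. For Mir17hg the unadjusted p was 0.136 without sham 2 and 0.048 without VO 2, again the only such fit past it.

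**Figure D3:**
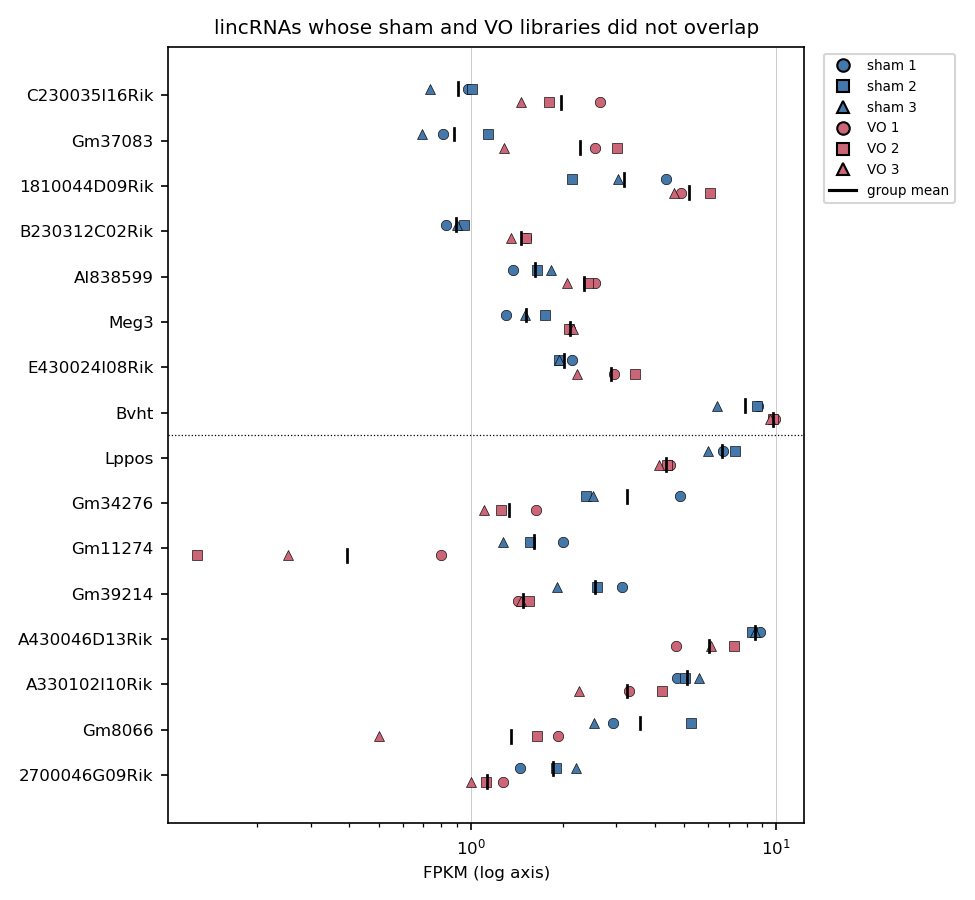
FPKM (log axis) of the 16 lincRNAs with the smallest p in each direction among those whose 3 sham (blue) and 3 VO (red) libraries did not overlap, with group means as bars. Genes higher in VO are above the dotted line and genes lower in VO below it. Meg3 and Lppos had VO libraries close together, whereas Gm11274 and Gm8066 were widely spread.

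Known noncoding RNAs were examined by role, on lists that also hold genes the table types otherwise. Of the 96 listed genes present, 39 were tested, and 15 of these were members. At an unadjusted p under 0.05, 1 listed gene was higher (Meg3) and 2 were lower in VO, and none passed the adjusted threshold. Over all tested genes 12% passed the unadjusted threshold (3.89% higher and 8.08% lower). That is the share to set beside the count of each list below, and no list was tested as a set. The 12 tested genes on the list of small nucleolar RNA hosts had a median log2 difference of -0.11, with 3 higher and 9 lower in sign and none past the unadjusted threshold. The members among them were Snhg18 (14.01 ± 2.26 FPKM in sham and 13.1 ± 1.23 FPKM in VO), Snhg6 (6.38 ± 1.09 and 5.86 ± 0.469 FPKM), Epb41l4aos (5.75 ± 1.94 and 4.12 ± 0.773 FPKM), Snhg20 (1.99 ± 0.683 and 1.91 ± 0.384 FPKM) and Snhg12 (1.89 ± 0.311 and 1.77 ± 0.508 FPKM). The log2 difference of Epb41l4aos was -0.20 without sham 1 (unadjusted p = 0.408) and -0.69 without sham 2 (unadjusted p = 0.0207). All 5 overlapped between groups, and the sign of the difference turned in Snhg6, Snhg12, Snhg18 and Snhg20 on values rescaled to TPM. The list was not complete. The members 2900076A07Rik and 9430037G07Rik also hold a small nucleolar RNA gene, or one of a related type, and were not on it.

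The 5 imprinted RNAs tested had a median log2 difference of 0.45, with 4 higher and 1 lower in sign, and 1 of them, Meg3, had an unadjusted p under 0.05. Meg3 and Rian belong to the same locus, so they do not give independent observations. H19, Rian, Airn and Peg13 overlapped between groups. Airn, antisense to Igf2r, measured 4.23 ± 0.602 FPKM in sham and 5.49 ± 1.95 FPKM in VO, and Peg13 measured 15.3 ± 0.862 and 14.2 ± 1.20 FPKM. The 4 tested RNAs described in heart had a median of 0.24 and none past the unadjusted threshold. One of them, Mhrt, is transcribed opposite to Myh7 and measured 18.4 ± 1.62 FPKM in sham and 12.7 ± 4.60 FPKM in VO (limma, unadjusted p = 0.0580, adjusted p = 0.414). The 4 tested genes on the list of microRNA hosts had a median of -0.08, the pair of nuclear body RNAs 0.34, and the 5 other known long noncoding RNAs 0.11. None of these listed genes passed the unadjusted threshold. Of the 8 members that held a microRNA gene, the list of microRNA hosts named only Mir17hg. Meg3 and H19 stood on the list of imprinted RNAs instead.

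The 7 tested transcripts that encode a small protein had a median log2 difference of -0.12 and included both listed genes that were lower. 1500011K16Rik, the gene of mitoregulin, a small protein of the inner mitochondrial membrane, measured 21.9, 15.1 and 15.05 FPKM in sham and 6.27, 12.9 and 11.3 FPKM in VO (limma, unadjusted p = 0.0257, adjusted p = 0.406). 1110038B12Rik measured 1.96 ± 0.238 and 1.39 ± 0.180 FPKM (limma, unadjusted p = 0.0438, adjusted p = 0.414). Neither is typed as lincRNA in the table. 1500011K16Rik was lowest in VO 1 and highest in sham 1, the libraries with the lowest and the highest summed level of atrial cardiomyocyte markers, and the part of this in its difference was not tested.

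The members' share of all FPKM was 0.276% ± 0.00760 in sham and 0.325% ± 0.0306 in VO (n = 3 each), given as a description with no test. It was 0.267 to 0.282% in sham and 0.289 to 0.344% in VO, so the groups did not overlap, and without H19 it was 0.231 to 0.243% and 0.251 to 0.271%. The separation depended on the measure. As a share of recovered fragments the range was 0.2694 to 0.2897% in sham and 0.2887 to 0.3459% in VO, and the groups overlapped. The FPKM sum over the members overlapped between groups, at 1020 to 1109 in sham and 1070 to 1196 in VO, and the sum over all genes was 361947 to 414851 in sham and 331122 to 369983 in VO. The summed atrial cardiomyocyte markers, given above, separated the groups as the FPKM share did, with all VO libraries lower, although Nppa and Sln singly did not. The part of these markers in the share was not tested.

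The neighbouring genes were not used by the rule, which took position only to leave out the sex chromosomes. The nearest tested protein-coding gene lay within 5 kb for 83 of the 192, on the other strand for 50 of these, and the median distance was 9480.5 bases. Across the 192 pairs the log2 differences of lincRNA and neighbour were weakly related (Pearson r = 0.105, Spearman rho = 0.127, across genes of the same libraries, with no test), and 107 pairs had the same sign. For the 59 neighbours within 5 kb with no shared exon, r was 0.0987, and for the 109 at over 5 kb it was 0.0732. Pairs at a short distance are given as examples. Snhg18 and Sema5a lie 148 bases apart on opposite strands, and Sema5a was 1.65 ± 0.353 FPKM in sham and 1.96 ± 0.0484 FPKM in VO. The log2 differences were -0.09 for Snhg18 (limma, unadjusted p = 0.561) and 0.26 for Sema5a (unadjusted p = 0.241). Lsmem2 lies 456 bases from Ifrd2, which was lower in VO (15.7 ± 1.04 and 11.7 ± 1.06 FPKM, limma, unadjusted p = 0.0065, adjusted p = 0.373). Lsmem2 had the same sign (log2 difference -0.21, against -0.43 for Ifrd2), but its groups overlapped. Of all members, 69 had a span that overlapped another long gene, 45 an exon over another gene's exon, and 14 a near-identical copy elsewhere, with at least 95% identity over at least 50% of the length.

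The largest spread between libraries of a group was found in Gm49207, Gm10076, Gm45353, Gm15906 and Gm20468. Apart from Gm10076 these rested on few fragments. Gm49207, 99.6% identical to the co-chaperone gene Ahsa1, went from 0 in sham 3 to 3.23 FPKM in sham 1, on 22 fragments in sham and 11 in VO. Gm45353 measured 0.255, 3.45 and 4.63 FPKM in sham and 5.25, 0.974 and 0.724 FPKM in VO. Gm15906, 89 bases from Fndc5, was at 0 in VO 1, and Gm20468, whose nearest protein-coding gene is the cardiac transcription factor gene Nkx2-5, was at 0 in VO 3. The groups overlapped in all 5, and in the 4 other than Gm10076 the direction of the difference turned in at least 1 of the fits that leave out a library. That of Gm10076 ranged from 0.11 without VO 3 to 2.13 without sham 1.

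Other lincRNAs were high in 1 library, and these were picked out after the values were seen. In 7 members 1 library was at least 2 times the next highest, and in 4 of the 7 that library was VO 1, where the macrophage and leukocyte markers were high. The same count was not made over all tested genes, so neither number can be read as particular to lincRNAs. AW112010, an RNA of immune cells that encodes a small protein, measured 5.43, 5.12 and 5.82 FPKM in sham and 30.5, 3.03 and 12.5 FPKM in VO. Its sham libraries were nearly equal, VO 1 and VO 3 were above them and VO 2 was below them. Gm42047 measured 8.51 FPKM in VO 1 and 2.10 to 3.36 FPKM in the other 5 libraries, Gm36161 measured 3.73 FPKM in VO 1 and 0.231 to 1.01 FPKM elsewhere, and Gm15675 measured 3.34 FPKM in VO 1 and 0.733 to 1.58 FPKM elsewhere. Gm42047 and Gm36161 have near-identical copies in the genome. Adgre1, a macrophage marker, was 62.1 FPKM in VO 1 and 9.76 to 14.6 FPKM elsewhere, and the part of these cells in the lincRNA levels was not tested. Without VO 1 the log2 difference of AW112010 was 0.17 (limma, unadjusted p = 0.751), compared with 0.94 with all 6 libraries (unadjusted p = 0.237, adjusted p = 0.563), and without VO 2 it was 1.82 (unadjusted p = 0.00214). The other 3 of the 7 were Gm10076, highest in VO 3, and Gm6634 and 4831440E17Rik, highest in sham 1. The brown fat markers were high in VO 3, and their part in Gm10076 was not tested. Gm10076 was second highest in sham 1, where Ucp1 was 0, and its reads cannot be placed with certainty.

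**Figure D4:**
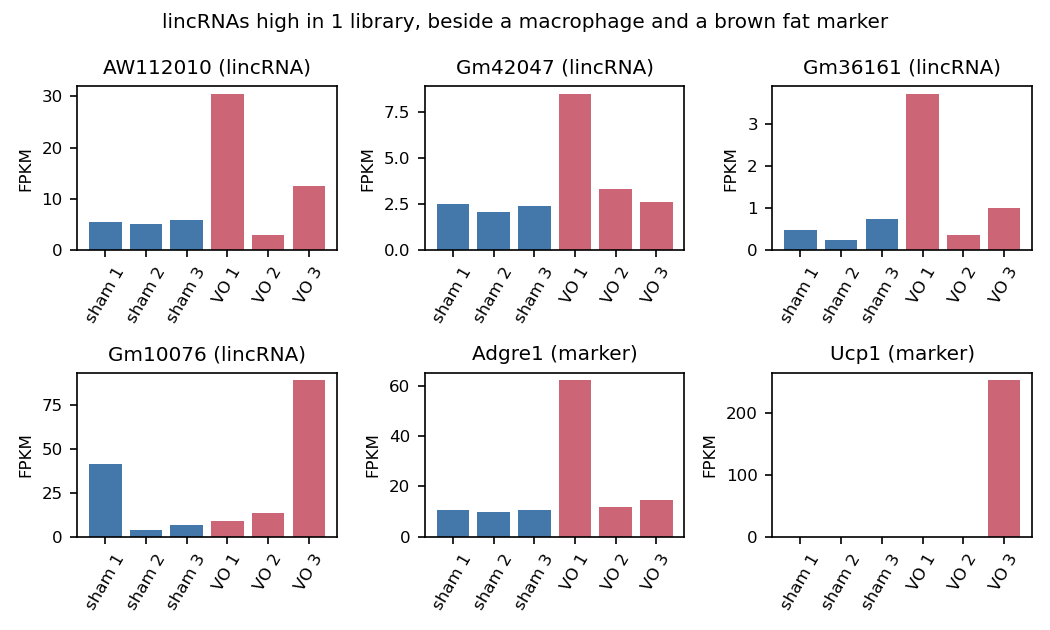
FPKM per library, on separate linear axes from 0, of 4 lincRNAs that were high in 1 library and of the macrophage marker Adgre1 and the brown fat marker Ucp1, in 3 sham (blue) and 3 VO (red) libraries. AW112010, Gm42047 and Gm36161 peaked in VO 1, as Adgre1 did. Gm10076 peaked in VO 3, the only library with Ucp1 above 0, and was next highest in sham 1, at 41.3 FPKM.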

How the data were processed

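RNA-seq was performed on the RA of sham (n = 3) and VO (n = 3) mice. Per the labels and the study's methods, the authors aligned reads with HISAT2 2.0.5 to GRCm38 (mm10), counted them with featureCounts 1.5.0-p3 and deposited FPKM values per gene; the annotation release is not given in the sources used here, and 187 of the 192 members had identical coordinates in GENCODE M21. The labels name an NEBNext Ultra kit, a name of kits that do not mark strand, but the catalogue number in the study's supplement belongs to a strand-marking kit; whether strand was marked or used in counting, and the RNA selection, are not given in the sources used here. Dividing out gene length and library size gave whole fragments for 100% of values in every library (tolerance 0.01). log2(FPKM + 0.1) was fitted with limma 3.58.1 (R 4.3.3; VO against sham, variance trend, two-sided, no covariate) over 12627 genes with a mean of at least 1 FPKM after median-of-ratios scaling, with Benjamini-Hochberg adjustment over all of them; this scale understates changes of low genes. The procedure was tested on simulated data. Replicate numbers did not pair the samples. Near-copies were sought with BLAST 2.17.0. Intervals are 95% limits from the fit.

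Named were the 10 most abundant members, the 8 with the smallest p per direction among those without overlap, members on 7 lists of noncoding RNAs, the 3 on each side of the threshold, the 5 with the largest residual SD, their nearest tested protein-coding genes, and the 5 other listed genes with the smallest p. Airn and Peg13 were given as well, as the remaining tested imprinted RNAs. Members and lists were chosen with earlier results of these data known. Alternatives were the pseudocount, the filter, the scaling, voom on recovered fragments, the variance prior, a replicate block and leaving out each library. A marker gene is not reported here.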

Additional observations from a re-analysis of the deposited data

How the results depend on the processing

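No lincRNA passed an adjusted p of 0.05 under any of 18 alternatives; the smallest adjusted p there was 0.2255. The 20 lincRNAs at an unadjusted p under 0.05 (8 higher, 12 lower) became 3 (0 higher, 3 lower) with a filter of 5 FPKM, which tests 42 of them, and 15 higher and 7 lower on TPM, where the median log2 difference was 0.12 over lincRNAs and 0.13 over all genes. The replicate block gave 15 lincRNAs, 5 of them higher, and 933 of all genes against 1511; deviations of same-numbered libraries correlated at -0.108, 0.0112 and -0.0292, no library correlated best with its own number, and the numbers were not taken as pairs. Leaving out 1 library gave 16 to 31 lincRNAs, 5 (without sham 1 or VO 2) to 16 (without VO 3) higher, 11 to 15 lower, and 873 (without sham 1) to 1997 (without VO 2) of all genes, with 947 without VO 1. A filter of 0.1 FPKM gave 1875 of all genes, 5 FPKM 1050 and no filter 2061. The mean share without H19 was 0.236% in sham and 0.262% in VO. Differences near 0 turned sign: on TPM 2900097C17Rik (0.10), Gm44386 (0.094), Gm45353 (0.055), Gm49207 (0.22), Snhg12 (0.014), Snhg18 (0.049), Snhg20 (0.11), Snhg6 (0.030) and Tmem250-ps (0.0020); with quantile normalization 2900097C17Rik (0.11) and Gm44386 (0.042); with a pseudocount of 0.01 Gm49207 (0.66). With 1 library left out the log2 differences spanned -0.11 to 0.029 for 2900097C17Rik, -2.08 to 0.071 for Gm15906, -0.093 to 0.21 for Gm19277, -1.46 to 0.67 for Gm20468, -0.42 to 0.049 for Gm26917, -0.30 to 0.23 for Gm44386, -1.29 to 0.58 for Gm45353, -1.76 to 0.77 for Gm49207, -0.32 to 0.079 for Snhg12, -0.22 to 0.015 for Snhg18, -0.18 to 0.22 for Snhg20 and -0.23 to 0.043 for Tmem250-ps. The cause of these changes was not tested. With 3 libraries a group an exact permutation test cannot go below p = 0.10, and low fragment numbers limit the precision of most lincRNAs.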

Other observations

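The 20 lincRNAs with an unadjusted p under 0.05 were unevenly placed. Chromosome 13 held 7 of them among its 18 members, and the other autosomes held 13 among 174 members. The 7 were C230035I16Rik and E430024I08Rik, which were higher in VO, and Gm11274, A330102I10Rik, Gm34276, Gm47990 and Gm47251, which were lower. Over all tested genes the share at this threshold was 11% on chromosome 13 and 12.1% on the other chromosomes. The count was noticed after the values were seen and was not tested.

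Libraries also differed in how often they held the extreme value of a lincRNA. Sham 1 held the highest value of 58 members, VO 2 of 40 and VO 1 of 36, and the lowest value lay in VO 1 for 51 members and in VO 3 for 41. These counts used FPKM as deposited and were not made over all genes, so they cannot be read as particular to lincRNAs. The FPKM sum over all genes was highest in sham 1 (414851) and lowest in VO 1 (331122).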
